A study of Homo sapiens with 5 samples.

Results

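The genes described here are 9 transcriptional outputs and feedback regulators of the ERK MAP kinase pathway: EPHA2, ETV4, PHLDA1, SPRY2, SPRED1, SPRED2, DUSP5, DUSP6 and PTPRR. They were chosen by gene symbol from a table of scaled counts, the read counts per RefSeq transcript that the authors had put on a common scale, and all 9 were found among 10595 genes. The 9 symbols covered 13 transcript rows, and each gene was represented by the row with the highest mean over the libraries. The cells were MDA-MB-231, an established triple-negative breast cancer line of human origin, grown in IMDM with fetal bovine serum. There were 5 libraries of RNA reverse transcribed with oligo-dT primers, 1 per group. In siNT, cells received a control siRNA for 48 hours, and in siSET an siRNA against SET for 48 hours. In siCIP2A they received an siRNA against CIP2A, for which the shared treatment protocol gives 48 hours although the sample's own label names no time. In PBS, cells received the vehicle for 12 hours, and in OP449 they received 1 µM of OP449, which the series calls a SET antagonist, for 12 hours. The study used a single cell line. The siRNA and PBS controls are separated both by treatment and by hours in culture after it.

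The ERK pathway runs from receptor tyrosine kinases through RAS, RAF and MEK to the kinases ERK1 and ERK2, which enter the nucleus and act on transcription factors. Part of the transcription that ERK drives encodes its own brakes: Sprouty and SPRED proteins act on RAS and RAF activation, and dual specificity phosphatases such as DUSP5 and DUSP6 remove phosphate from ERK itself. SET and CIP2A are endogenous inhibitors of the phosphatase PP2A, which acts on several proteins of this pathway.

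The 5 libraries held between 3641203 reads, in siSET, and 5601987 reads, in siCIP2A, over the gene table. SET and CIP2A were not analysed here, which leaves silencing of the targets unchecked. The line's markers VIM, CD44, AXL and KRT18 were detected in every library, with VIM between 15669.7 and 20866.5 scaled counts and KRT18 between 2032 and 2965. The 7 luminal or epithelial markers in the table summed to between 456 and 672 scaled counts. Most of it was GATA3 (133 to 250), EPCAM (139 to 282) and ERBB3 (95.2 to 160), which were detected in every library. CDH1 ranged from 12.9 to 56.7, and PGR and KRT5 were at 0 in every library. No leukocyte marker of 4 in the table passed 3 reads in any library, and CD79B was at 0. The 5 markers of fibroblasts and endothelium in the table summed to between 78.2 and 169 scaled counts, most of it COL1A1, with DCN at 0. Since each group had 1 library, conditions could not be tested against each other, and every difference given here lacks a replicate check. Square brackets hold the 95% exact Clopper-Pearson limits that counting error alone puts on the log2 ratio between libraries. Variation between cultures is outside them, and they narrow as a gene's read number grows. Because the RNA came from whole cultures, a shift in the mixture of cell states and a shift of RNA within cells cannot be told apart.

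The sequences before the transcription starts are shown for 3 members with different patterns over the libraries, chosen among those with a window: EPHA2 (lower in every treated library), SPRY2 (higher with both targeting siRNAs) and PTPRR (the widest range). Each is the 250 bases before a RefSeq transcription start on GRCh38.p14, 5′ to 3′ on the gene's strand. The windows are chr1:16156070-16156319 for EPHA2, chr13:80341127-80341376 for SPRY2 and chr12:70754609-70754858 for PTPRR, all 3 on the minus strand. Capitals mark a match to a motif that was searched.
EPHA2: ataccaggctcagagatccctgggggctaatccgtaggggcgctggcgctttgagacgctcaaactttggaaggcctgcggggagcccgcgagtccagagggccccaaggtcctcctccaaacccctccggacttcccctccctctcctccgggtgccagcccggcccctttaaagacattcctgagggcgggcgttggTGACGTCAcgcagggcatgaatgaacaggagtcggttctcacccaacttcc
SPRY2: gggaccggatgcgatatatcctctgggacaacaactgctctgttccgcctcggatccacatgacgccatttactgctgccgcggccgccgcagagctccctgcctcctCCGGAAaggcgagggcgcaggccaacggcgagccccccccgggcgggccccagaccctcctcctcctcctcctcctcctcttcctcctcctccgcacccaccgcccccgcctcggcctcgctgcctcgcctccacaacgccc
PTPRR: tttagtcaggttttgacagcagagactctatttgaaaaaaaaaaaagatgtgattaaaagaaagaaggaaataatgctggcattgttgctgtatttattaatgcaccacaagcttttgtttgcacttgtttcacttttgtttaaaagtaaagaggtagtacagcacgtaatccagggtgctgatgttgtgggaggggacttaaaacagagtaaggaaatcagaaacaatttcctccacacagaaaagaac

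RefSeq windows matched 7 of the 9 members, and ETV4 and DUSP5 had no entry. Where a gene had several starts, the window nearest to the GENCODE start of one of its deposited transcripts was used. For PTPRR and SPRED2 this was the start of the shorter transcript, which for both genes is not the row that represents the gene. The start used lay 510 bases from the GENCODE start for SPRED1, 175 for SPRY2, 128 for SPRED2, 96 for DUSP6, 53 for PTPRR and 0 for PHLDA1. For EPHA2 no GENCODE start was matched. Both strands were searched for a CRE (TGACGTCA), an ETS site (CCGGAA), an AP-1 site (TGANTCA) and an E-box (CACGTG), and no window held more than 1 match. EPHA2 held a CRE that began 51 bases before the start, a motif found in 1.65% of all 35116 RefSeq windows of this length. SPRY2 held an ETS site that began 142 bases before the start, and PHLDA1 held one 89 bases before its start, a motif found in 14.5% of all windows. The AP-1 and E-box letters were in 6.57% and 6.34% of all windows and in none of the 7 member windows. A match describes the letters only, and its absence says only that these letters are not in the window. The GC content was 63.2% for EPHA2, 70.4% for SPRY2 and 35.6% for PTPRR, beside a median of 58% over all windows.

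**Figure D1:**
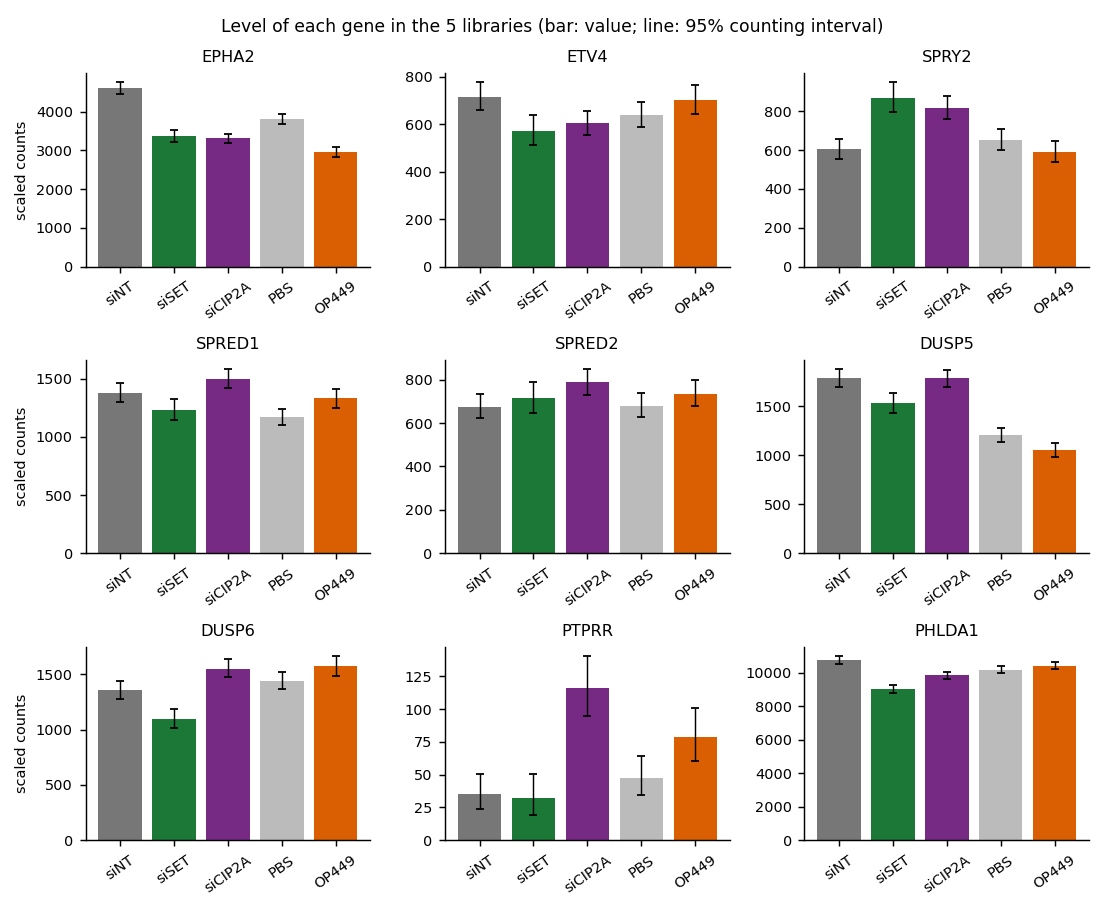
Scaled counts (vertical axis, from 0, scaled separately per gene) of the 9 genes in the 5 libraries, with bars for the values and lines for 95% exact counting intervals. EPHA2 is highest in siNT at 4610 and lowest in OP449 at 2955, DUSP5 is higher in the 3 siRNA libraries than in both 12 hour libraries, and PTPRR is highest in siCIP2A at 116.

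Among the outputs, EPHA2 encodes a receptor tyrosine kinase for ephrin-A ligands whose transcription follows RAS-ERK activity. Its transcript spans chromosome 1 from 16450832 to 16482564 on hg19, minus strand. EPHA2 stood at 4610 scaled counts in siNT and 3809 in PBS, against 3365 in siSET, 3315 in siCIP2A and 2955 in OP449, from 1967 to 3890 reads. The 3 treated libraries were all below both controls, without overlap. From low to high the order was OP449, siCIP2A, siSET, PBS and siNT, and siCIP2A and siSET were the neighbours whose interval included equality. Over the genes with a mean of at least 50 scaled counts, 7.11% had all 3 treated libraries below both controls and 10.6% had all 3 above.

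ETV4 encodes an ETS transcription factor of the PEA3 group, on chromosome 17 from 41605212 to 41623762, minus strand. It stood at 717 scaled counts in siNT and 640 in PBS, against 573 in siSET, 604 in siCIP2A and 702 in OP449. The ends of this range, siNT and siSET, were apart by 1.25-fold, and no neighbouring pair of libraries could be told apart by its counting interval. PHLDA1, an intracellular protein with a pleckstrin homology-like domain that growth factors induce, lies on chromosome 12 from 76419228 to 76425556, minus strand. Its levels were 10751 in siNT and 10174 in PBS, against 9000 in siSET, 9846 in siCIP2A and 10408 in OP449. PHLDA1 had the most reads of the 9 genes, 5261 to 9072 per library, so that differences as small as 1.03-fold between neighbouring libraries had intervals beside equality. The levels of PHLDA1 in siSET and siCIP2A lay below those of the other 3 libraries, as did those of ETV4, an order shown by 11.3% of genes with a mean of at least 50.

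The Sprouty and SPRED genes encode membrane-associated inhibitors that share a cysteine-rich domain. SPRY2, on chromosome 13 from 80910114 to 80915086, minus strand, stood at 606 scaled counts in siNT and 652 in PBS, against 871 in siSET, 818 in siCIP2A and 590 in OP449. Both targeting siRNA libraries were above the other 3, which held for 13.1% of genes with a mean of at least 50, and siSET and siCIP2A could not be told apart from each other (log2 ratio of siSET to siCIP2A 0.09 [-0.08 to 0.25]). SPRED1, which brings the RAS inactivator neurofibromin to the membrane, lies on chromosome 15 from 38545052 to 38649449, plus strand. It ranged from 1171 in PBS through 1230 in siSET, 1332 in OP449 and 1379 in siNT to 1500 in siCIP2A. Among neighbours in that order, siCIP2A and siNT were the pair with an interval beside equality. SPRED2, its close relative, lies on chromosome 2 from 65537986 to 65659656, minus strand, and stood at 676 in siNT and 680 in PBS, against 715 in siSET, 787 in siCIP2A and 736 in OP449. For SPRED2 the 3 treated libraries were above both controls, as in 10.6% of genes with a mean of at least 50. However, all 4 neighbouring pairs had intervals that included equality. SPRED2 had the narrowest range of the 9 genes, 1.17-fold from siNT to siCIP2A.

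The phosphatases differed most in pattern. DUSP5, a nuclear phosphatase specific to ERK, lies on chromosome 10 from 112257625 to 112271300, plus strand. Its level was 1781 scaled counts in siNT and 1202 in PBS, against 1531 in siSET, 1782 in siCIP2A and 1047 in OP449. The 3 siRNA libraries stood above both 12 hour libraries without overlap, a pattern that 12.1% of genes with a mean of at least 50 showed in this direction and 13.8% in the other. DUSP5 was the sole member with that pattern in either direction. Time and transfection both separate these libraries and cannot be told apart.

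DUSP6, a cytoplasmic ERK phosphatase used as a readout of ERK activity, lies on chromosome 12 from 89741839 to 89746296, minus strand. It stood at 1357 scaled counts in siNT and 1443 in PBS, against 1095 in siSET, 1553 in siCIP2A and 1574 in OP449. The siSET library was the lowest, 1.24-fold below siNT, its neighbour in the order, while the other 4 libraries formed a sequence in which no neighbours could be told apart. The number of DUSP5 reads per DUSP6 read was 1.31 in siNT [1.21 to 1.42], 1.40 in siSET [1.26 to 1.55], 1.15 in siCIP2A [1.07 to 1.23], 0.833 in PBS [0.767 to 0.904] and 0.665 in OP449 [0.608 to 0.728]. These ratios are not corrected for transcript length, so they compare libraries and not the abundance of the 2 genes. The 3 siRNA libraries lay above 1 and both 12 hour libraries below 1. DUSP5 levels alone separated these libraries in the same way, and DUSP6 levels overlapped.

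**Figure D2:**
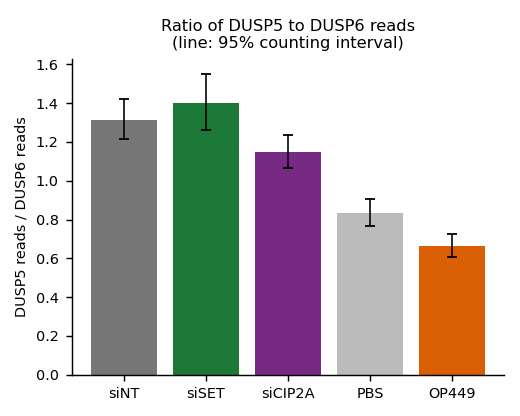
DUSP5 reads per DUSP6 read (vertical axis, from 0, without length correction) in each of the 5 libraries, with 95% exact counting intervals. The siRNA libraries lie at 1.15 to 1.40 and the 12 hour libraries at 0.665 and 0.833.

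PTPRR encodes a tyrosine phosphatase that binds ERK through a kinase interaction motif and holds it in the cytoplasm. Its transcripts end at 71031862 on chromosome 12, minus strand, and start at 71148365 for the shorter and 71314584 for the longer. PTPRR stood at 35.6 scaled counts in siNT and 47.6 in PBS, against 32.5 in siSET, 116 in siCIP2A and 78.6 in OP449, from 30 and 42 reads in the controls and 19, 105 and 61 in the treated libraries. It had far fewer reads than the other 8 genes, whose lowest count in any library was 335. The siCIP2A library was the highest, OP449 was next, and the 3 remaining libraries could not be told apart as neighbours. From siSET to siCIP2A the ratio was 3.57-fold, the widest range of the 9. The median range over all genes with a mean of at least 50 was 1.33-fold, and the median over the 9 members was 1.44-fold.

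The second transcript rows of 4 members describe where their reads lay. In PTPRR both rows held the same number of reads in every library, so no read was assigned to the additional 5′ part of the longer transcript alone, a floor that covers counting error only and allows up to 3 reads per library. In DUSP6 the shorter transcript variant held 83.9% of the reads of the longer in siNT and 83.4% in PBS, against 85.0% in siSET, 84.2% in siCIP2A and 83.6% in OP449. The widest exact Clopper-Pearson interval of these, in siSET, ran from 82.0% to 87.7% and covered the other 4 values, so no shift between the rows was detectable at this depth beside the low DUSP6 level in siSET. For SPRED2 the shorter row held 91.9% to 93.8% of the reads of the longer one, and for ETV4 97.1% to 99.2%. The rows share most of their reads, and these shares are not isoform proportions.

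The first comparison asked how the pathway's outputs stood after silencing SET. Most members were lower in siSET than in siNT, by 1.12-fold to 1.37-fold, and SPRY2 was higher. A gene entered the counts where its mean over the 2 libraries was at least 50 scaled counts, which 8 members passed, PTPRR being below with 30 and 19 reads. No member differed 2-fold in either direction, a threshold that 0.395% of 6083 genes passed upward and 0.789% downward. EPHA2 had a log2 fold on log2(value + 1) of -0.45 [-0.53 to -0.38], ETV4 of -0.32 [-0.52 to -0.13] and DUSP6 of -0.31 [-0.45 to -0.17]. PHLDA1 was at -0.26 [-0.31 to -0.21], DUSP5 at -0.22 [-0.34 to -0.10] and SPRED1 at -0.17 [-0.30 to -0.03]. SPRY2 stood at 0.52 [0.34 to 0.70] and SPRED2 at 0.08 [-0.10 to 0.27].

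Counted by interval, 6 of the 8 lay below equality and 1 above. Of all genes, 19.8% lay below and 19.8% above, and of the genes with a mean of at least 500, the depth of these 8 members, 25.5% lay below and 25.4% above. The median log2 fold was -0.24 over the 8 members and 0.01 over all genes. The choice of control entered this count. With PBS as the control, 3 members lay below equality (EPHA2, DUSP6 and PHLDA1) and 2 above (SPRY2 and DUSP5), and the median was -0.045. Of all genes 19.3% lay below and 19.2% above in that comparison, and no member was past 2-fold, where 0.279% of genes were higher and 0.378% lower. Against PBS, DUSP6 in siSET stood at -0.40 [-0.54 to -0.26], EPHA2 at -0.18 [-0.26 to -0.10] and SPRY2 at 0.42 [0.24 to 0.59], while DUSP5 stood at 0.35 [0.22 to 0.48], on the other side of its value against siNT.

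**Figure D3:**
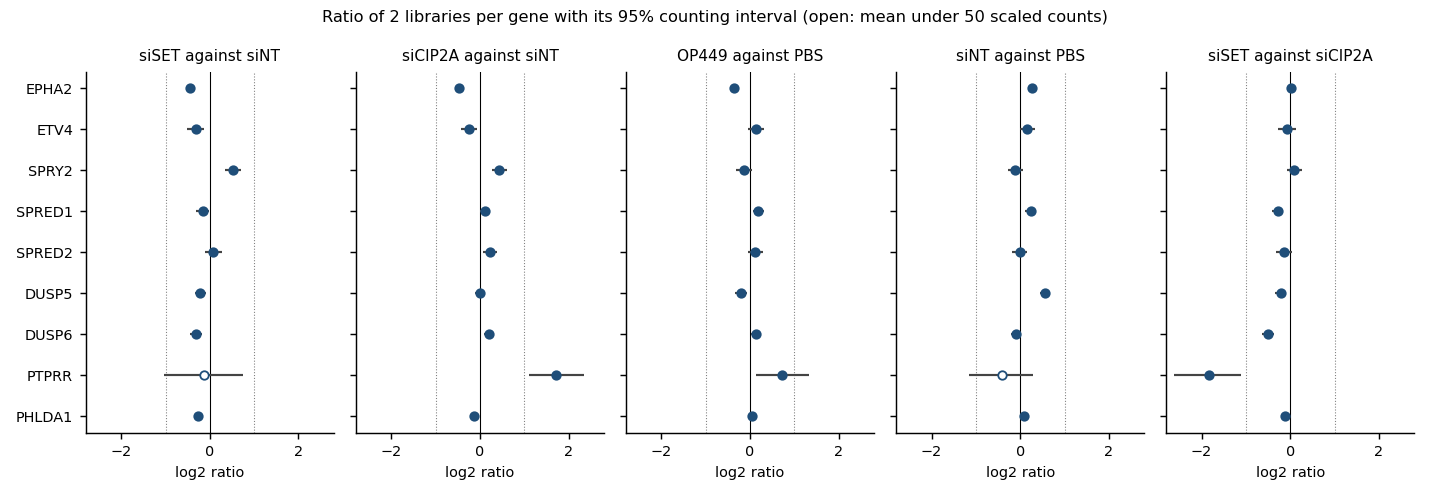
Log2 ratio of 2 libraries (horizontal axis) for the 9 genes in 5 comparisons, with 95% exact counting intervals and dotted lines at a 2-fold difference. PTPRR passes 2-fold in siCIP2A against siNT and in siSET against siCIP2A, and open points are pairs with a mean under 50 scaled counts. In both of these comparisons PTPRR passes that floor only through siCIP2A.

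Silencing of CIP2A was compared with siNT in the same way. PTPRR was 3.26-fold above siNT in siCIP2A, the ERK inhibitors SPRY2 and SPRED2 were higher by less, and the outputs EPHA2 and ETV4 were lower. At 1.68 [1.11 to 2.34] on the log2 scale, with 105 reads against 30, PTPRR was the only member past 2-fold, where 0.475% of 6101 genes were higher and 0.639% lower. SPRY2 stood at 0.43 [0.27 to 0.60], SPRED2 at 0.22 [0.06 to 0.38], DUSP6 at 0.19 [0.08 to 0.31] and SPRED1 at 0.12 [0.01 to 0.23]. EPHA2 was 1.39-fold lower, at -0.48 [-0.55 to -0.41], ETV4 stood at -0.25 [-0.42 to -0.08] and PHLDA1 at -0.13 [-0.17 to -0.08]. DUSP5 was at 0.00 [-0.10 to 0.10].

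By interval, 5 of 9 members lay above equality and 3 below, against 21.3% and 20.2% of all genes and 25.5% and 27.1% of those with a mean of at least 500. The members' median was 0.12 and that of all genes 0.02. Those above were all feedback inhibitors or phosphatases, and those below were the 3 outputs, which is a description of 9 genes chosen with earlier results known. The lists of other pathway genes, described below, did not show this split. Of further output genes 5 lay above and 6 below, and of other negative regulators 3 lay above and 2 below. Against PBS, PTPRR in siCIP2A stood at 1.27 [0.75 to 1.84], SPRY2 at 0.33 [0.17 to 0.49] and EPHA2 at -0.20 [-0.27 to -0.13]. DUSP6 stood at 0.11 there with an interval that included equality, and DUSP5 at 0.57 [0.46 to 0.68]. By interval, 5 members lay above PBS and 2 below, against 22.4% and 20.4% of all genes, and PTPRR alone was past 2-fold, where 0.41% of genes were higher and 0.705% lower. There too PTPRR passed the floor only through siCIP2A, with 47.6 scaled counts in PBS.

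The third comparison asked how the genes stood after 12 hours of OP449. EPHA2 was 1.29-fold lower than in PBS and DUSP5 1.15-fold lower, whereas PTPRR was 1.65-fold higher. Their log2 folds were -0.37 [-0.44 to -0.29] for EPHA2, -0.20 [-0.33 to -0.06] for DUSP5 and 0.71 [0.13 to 1.33] for PTPRR. The last came from 61 and 42 reads, and PTPRR passed the floor only through OP449, with 47.6 scaled counts in PBS. SPRED1 stood at 0.19 [0.06 to 0.31] and DUSP6 at 0.13 [0.01 to 0.24]. The intervals of ETV4, SPRY2, SPRED2 and PHLDA1 included equality, with log2 folds of 0.13, -0.14, 0.11 and 0.03. No member differed 2-fold, a threshold passed by 0.295% of 6095 genes in each direction. By interval, 3 of 9 members were above and 2 below, against 19.3% and 16.9% of all genes and 23.1% and 23.8% of those with a mean of at least 500. The members' share was near that background. Their median was 0.11, beside 0.02 over all genes.

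A comparison of siNT with PBS gave the distance between untargeted libraries. DUSP5 was 1.48-fold higher in siNT than in PBS, at 0.57 [0.45 to 0.68], the largest difference of any member past the floor between the controls. EPHA2 stood at 0.28 [0.21 to 0.34], SPRED1 at 0.24 [0.11 to 0.36] and PHLDA1 at 0.08 [0.04 to 0.12]. By interval, 4 of 8 members were above equality and 0 below, against 17.7% and 17.6% of all genes and 24.3% and 23.3% of those with a mean of at least 500. At 2-fold there was no member, beside 0.247% of 6075 genes higher and 0.148% lower. PTPRR, below the floor in this pair, had 30 and 42 reads and an interval from -1.15 to 0.29. All 4 members above PBS in siNT were below siNT in siSET. Both comparisons contain the siNT library, and a high value in siNT raises the first and lowers the second. Their values are set side by side and not counted as separate evidence. The share of all genes with both differences was not counted.

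A direct comparison of the 2 siRNA libraries did not involve either control. All 3 phosphatases among the members were lower in siSET than in siCIP2A. PTPRR was 3.57-fold lower, at -1.80 [-2.62 to -1.12], DUSP6 1.42-fold lower, at -0.50 [-0.64 to -0.37], and DUSP5 1.16-fold lower, at -0.22 [-0.34 to -0.10]. SPRED1 stood at -0.29 [-0.42 to -0.15] and PHLDA1 at -0.13 [-0.18 to -0.08]. The intervals of EPHA2 (0.02), ETV4 (-0.08), SPRY2 (0.09) and SPRED2 (-0.14) included equality. By interval, 5 of 9 members were lower and 0 higher, against 21.4% and 20.1% of all genes and 26.3% and 26.5% of those with a mean of at least 500. At 2-fold, PTPRR alone was lower, beside 0.853% of 6097 genes, and 0.82% were higher. PTPRR passed the floor only through siCIP2A, with 32.5 scaled counts in siSET. The members' median was -0.14 and that of all genes -0.01.

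**Figure D4:**
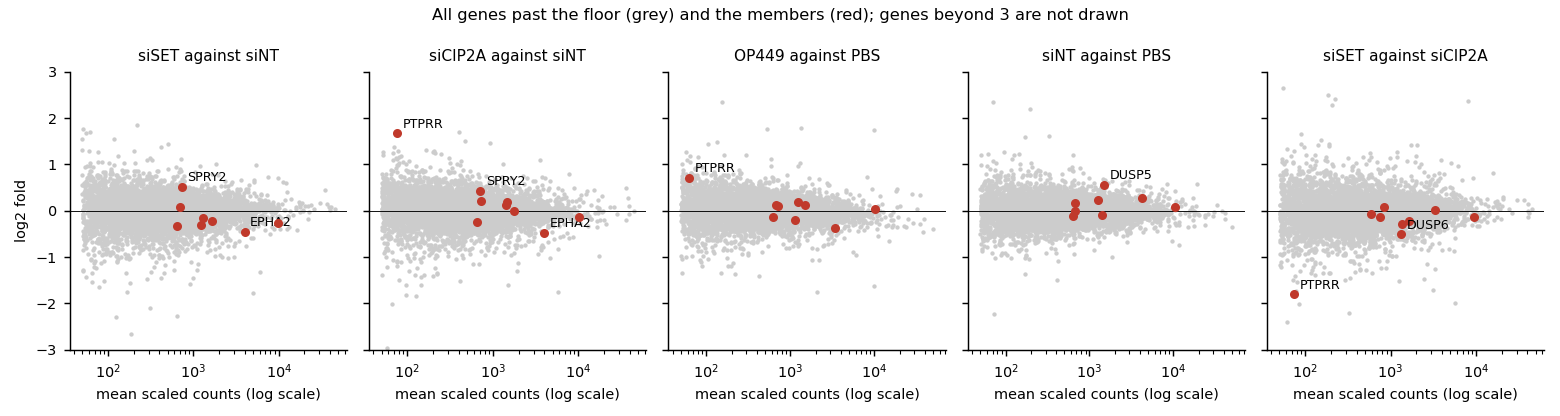
Log2 fold (vertical axis) against the mean of the 2 libraries in scaled counts (horizontal log axis) for all genes past the floor of 50, with the members in red and those beyond 0.4 named. PTPRR is at the edge of the cloud at 1.68 in siCIP2A against siNT and -1.80 in siSET against siCIP2A, and the other members lie within it.

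The other genes of the pathway came from lists drawn up from its known parts and were counted in the same way. Of 43 further ERK output genes, 24 were in the table and 19 passed the floor in each comparison. In siSET against siNT, 11 of these 19 lay below equality by interval and 1 above, with a median of -0.15, against 19.8% of all genes in each direction and 25.5% and 25.4% of those with a mean of at least 500. The control entered this count too. Over all other pathway lists together, 73 genes passed the floor with siNT as the control, and 8 lay above and 25 below. With PBS as the control 15 lay above and 18 below, against 19.2% and 19.3% of all genes in that comparison. PHLDA2, a relative of PHLDA1, stood at -0.62 [-0.81 to -0.43], the urokinase gene PLAU at -0.50, the EGF receptor ligand gene TGFA at -0.48 and SH2B3 at -0.37. In siSET against siCIP2A, 16 of the 19 were lower in siSET, 6 of them by interval (26.3% of genes with a mean of at least 500), and 2 were higher by interval (26.5%), with a median of -0.15 where 51.4% of all genes were lower. The AP-1 subunit gene FOSL1 stood at -0.41 [-0.48 to -0.33] there, IER2 at -0.35 [-0.50 to -0.19] and SPHK1 at -0.39 [-0.90 to 0.10], whereas MCL1, a survival gene of the BCL2 family, stood at 0.64 [0.56 to 0.72]. In siCIP2A against siNT, 5 were above and 6 below by interval, against 25.5% and 27.1% of the genes with a mean of at least 500, among them MCL1 at -0.79, PLAU at -0.59, PHLDA2 at -0.54 and PLAUR at -0.32. In OP449 against PBS, 6 were above and 4 below, against 23.1% and 23.8% of the genes with a mean of at least 500, with ZFP36 at 0.66, SPHK1 at 0.60, KLF6 at -0.30 and ELK3 at 0.26. In siNT against PBS, 10 were above and 2 below, against 24.3% and 23.3% of such genes, led by the urokinase receptor gene PLAUR at 0.69 [0.57 to 0.80] and PLAU at 0.41.

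Of 31 other negative regulators of RAS and ERK, 16 were in the table and 12 passed the floor. In siSET against siNT, 5 were below by interval and 1 above, against 19.8% of all genes in each direction. The RAS GTPase activating protein gene RASA3 stood at -0.70 [-0.88 to -0.52], ERRFI1, a feedback inhibitor of EGF receptors, at -0.59 [-0.66 to -0.52], the ubiquitin ligase gene CBL at -0.58 [-0.71 to -0.46] and RAP1GAP at -0.46 [-1.21 to 0.24]. In siCIP2A against siNT, 3 were above by interval and 2 below, against 21.3% and 20.2% of all genes. CBL stood at -0.79 [-0.90 to -0.67] and RASSF5 at -0.77 [-1.16 to -0.39] there, whereas ERRFI1 stood at 0.27 [0.22 to 0.33]. In siSET against siCIP2A directly, 2 were above by interval and 2 below, against 20.1% and 21.4% of all genes. ERRFI1 was at -0.86 [-0.93 to -0.80] and RASA3 at -0.82, whereas RASSF5 was higher, at 0.60 [0.17 to 1.03]. In OP449 against PBS, 2 were above and 2 below, against 19.3% and 16.9% of all genes, with CBL at 0.47 and PEBP1, a RAF inhibitor, at -0.26.

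Other MAP kinase phosphatases numbered 7 in the table of 13 listed, and 6 passed the floor. In siSET against siNT, 2 were below by interval and 0 above, against 19.8% of all genes each way, with DUSP8 at -0.95 [-1.51 to -0.44] from 42 and 118 reads and DUSP3 at -0.24. In siCIP2A against siNT, 2 were above and 1 below, against 21.3% and 20.2% of all genes, with DUSP14 at -0.54 and DUSP3 at 0.31. In OP449 against PBS, 3 of 6 were below and 0 above, against 16.9% and 19.3% of all genes, with DUSP8 at -0.53, DUSP23 at -0.35 and DUSP3 at -0.22. In siSET against siCIP2A, 1 was above and 2 below, against 20.1% and 21.4% of all genes. DUSP14 was the one above, at 0.71 [0.51 to 0.92], the opposite side from the member phosphatases. DUSP3, which acts on ERK and JNK, stood at -0.55 [-0.68 to -0.41] and DUSP8 at -0.60 [-1.16 to -0.07].

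The cascade itself, from adaptors to kinases and ETS factors, had 28 of 40 listed genes in the table and 27 past the floor. Its median lay between -0.05 and 0.07 in all 5 comparisons, and no gene reached 2-fold. In siSET against siNT, 4 were above and 6 below by interval, against 19.8% of all genes each way, with RRAS2 at 0.49, PPP1CC at 0.37, the FGF receptor adaptor gene FRS2 at -0.33 and MAP2K1, which encodes MEK1, at -0.32. In siCIP2A against siNT, 9 were above and 8 below, against 21.3% and 20.2% of all genes and 25.5% and 27.1% of those with a mean of at least 500, with FRS2 at -0.84 [-1.08 to -0.62] and the scaffold gene IQGAP1 at 0.36. In OP449 against PBS, 6 were above and 5 below, against 19.3% and 16.9% of all genes, with the ETS factor gene ELK4 at 0.76 [0.41 to 1.13], PTPN11, the phosphatase SHP2, at 0.35 and the adaptor gene SHC1 at -0.33.

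**Figure D5:**
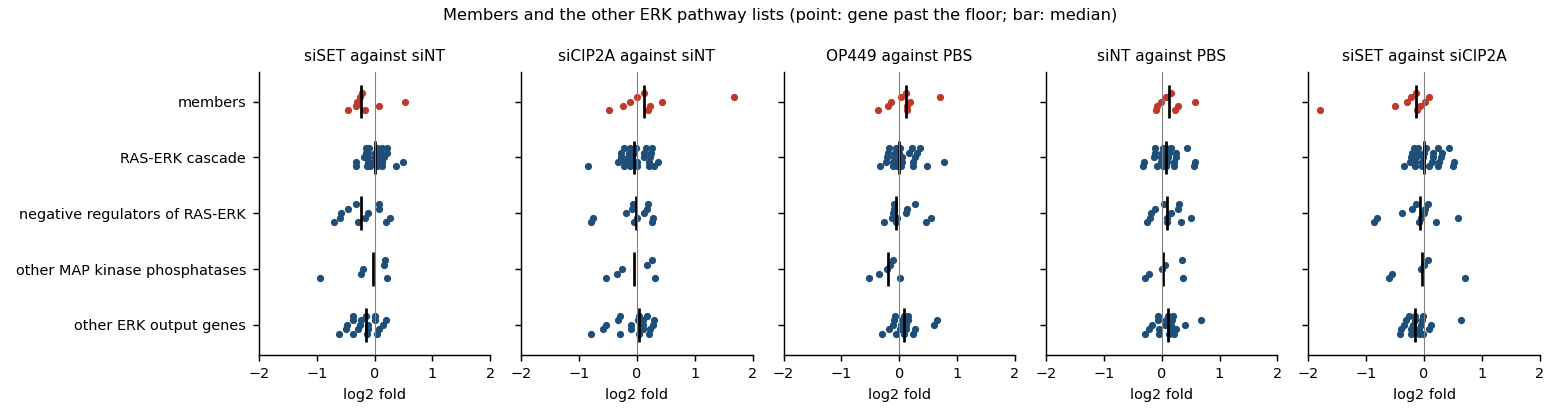
Log2 fold (horizontal axis) of each gene past the floor of 50, for the members (red) and 4 other ERK pathway lists (blue) in 5 comparisons, with black bars at the medians. In siSET against siNT the medians are -0.24 for the members, -0.23 for negative regulators and -0.15 for other output genes, and 0.01 for the cascade.

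Likeness of pattern was measured over the 5 libraries as the Euclidean distance between log2(value + 1) values, each gene centred on its own mean, for the 3 members of widest range. For PTPRR the nearest genes were MT1X, a metallothionein, at 0.61, IL1RN at 0.62 and C1orf26 at 0.68, where the median distance over all genes was 1.55. MT1X stood at 191 scaled counts in siNT and 287 in PBS, against 258 in siSET, 622 in siCIP2A and 347 in OP449, also highest in siCIP2A with OP449 next. For DUSP5 the nearest were ZKSCAN2, STK40 and HEATR5B, each at 0.15 beside a median of 0.77, and STK40 ranged from 1913 in OP449 to 2974 in siCIP2A. For EPHA2 they were GALM at 0.07, RABGGTA at 0.11 and GOLGA3 at 0.12 beside a median of 0.61. Among the members, the closest pair was ETV4 and PHLDA1 at 0.11, followed by SPRED1 and SPRED2 at 0.21. The distance is not scaled by a gene's range, and these genes had the narrowest ranges of the members, 1.17-fold to 1.28-fold. Genes that vary little lie close whatever their order of libraries. For SPRED2 siNT was the lowest library, at 676, whereas for SPRED1 only siCIP2A was above siNT, at 1379. With 5 libraries, a small distance between a pair of genes can arise easily among 6092 genes.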

How the data were processed

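Per the file headers, the authors deposited 1 value per RefSeq transcript and library, a count-based signal already scaled between libraries. The submitters' processing notes name hg19, CASAVA and Bowtie 1.0.0 without their roles. For the counter, its use of strand and the scaling method, none is named, and they are left as not given in the sources used here. Dividing each library by the value of 1 read gave whole reads for 100% of values, within 0.001 reads. One read was worth 1.10 (siCIP2A) to 1.71 (siSET) scaled counts. Of 16383 transcript rows, 14 had a symbol restored through their accession and 1 without a gene name was left out.

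Groups came from the sample labels. Each of 5 comparisons used 2 libraries: log2 folds on log2(value + 1), a floor of 50 on their mean, and the 95% exact Clopper-Pearson interval of the ratio from the reads. Reads carry no molecular identifiers, so intervals cover counting error only. The calculation was tested on simulated data. Members and lists were chosen with earlier results of these data known. The named genes are the 9 members, up to 4 genes per other list and comparison with the largest absolute log2 fold, and the 3 nearest genes of the 3 members of widest range, and not all of these are printed. The counts of genes with a mean of at least 500, the comparisons of treated with control, of siRNA with 12 hour and of both targeting siRNA with the other libraries, the ratio of DUSP5 to DUSP6 and the promoter search were added after the values were seen. Alternatives were other floors, a pseudocount of 10, a fold of 1.5, 3 rescalings, PBS as the control, summed transcript rows and an exact binomial test. Analyses used Python 3.11.15, NumPy 2.4.6, SciPy 1.17.1 and pandas 2.3.3.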

Additional observations from a re-analysis of the deposited data

How the results depend on the processing

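Equal totals, the median of ratios, equal upper quartiles, summed transcript rows and a pseudocount of 10 left each member's log2 fold within its counting interval and each count within 1.5 times. Summing counts the reads that a gene's rows share more than once. This narrows the intervals and leaves the fold of such a gene nearly fixed in advance. With PBS as the control of the siRNA libraries, 8 of 17 members' log2 folds left their interval, and 2 with an interval below equality changed sign in siSET, SPRED1 to 0.071 and DUSP5 to 0.35. In siSET the members' median then moved to -0.045 and the members counted by interval to 2 higher and 3 lower. The other pathway genes higher by interval moved to 15. Of all genes, 19.2% were higher and 19.3% lower by interval in siSET against PBS. The cause of these moves was not tested. With a floor of 200, the member called at 2-fold in siCIP2A against siNT and in siSET against siCIP2A was lost in both (0 each), because PTPRR is then not tested. With a fold of 1.5, 1 member was higher in OP449, namely PTPRR. For the other pathway genes that fold gave 4 lower in siSET, 1 higher and 5 lower in siCIP2A, 3 higher in OP449, 1 higher in siNT against PBS, and 3 higher and 3 lower in siSET against siCIP2A, where none passed 2-fold. A floor of 20 gave 1 of them 2-fold higher in siSET. Without a floor, 5 were 2-fold higher in siSET, 1 in siCIP2A and 1 in OP449, from genes of few reads. Likewise 2 were lower in OP449, 3 lower in siNT against PBS and 6 higher in siSET against siCIP2A. The share of all genes was not counted at a fold of 1.5, a floor of 20 or without a floor, so these counts have no background. Each gene's recovered reads were also put to an exact binomial test. This alternative, added after the data were seen, compares 2 libraries and not conditions. With Benjamini-Hochberg adjustment at 0.05 it called 1825 genes in siSET against siNT, 2055 in siCIP2A against siNT, 1654 in OP449 against PBS, 1604 in siNT against PBS and 2073 in siSET against siCIP2A. It no longer called SPRED1 in siSET and siCIP2A against siNT, or DUSP6 in OP449. Depth limits PTPRR most: with 19 to 105 reads, the log2 ratio of siSET to siNT had an interval from -1.04 to 0.75. No paired analysis was possible because each group had 1 library.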

Other observations

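EPHA2 belongs to a family of receptors with membrane-bound ligands. Of 20 other Eph receptor and ephrin genes listed, 9 were in the table, and 4 to 6 passed the floor per comparison. The receptor gene EPHB2 stood at 1371 scaled counts in siNT and 1283 in PBS, against 1346 in siSET, 1707 in siCIP2A and 1363 in OP449. It was higher in siCIP2A than in siNT, at 0.32 [0.21 to 0.43], where EPHA2 was lower. The ligand gene EFNA1 ranged from 83.9 to 98.3 scaled counts, and its intervals included equality in the comparisons given here: 0.19 in siSET against siNT, 0.16 in OP449 against PBS and 0.00 in siNT against PBS. EFNB2 stood at -0.31 [-0.45 to -0.18] in OP449 against PBS, beside EPHA2 at -0.37.

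Of 15 other receptor tyrosine kinase genes that feed the pathway, 6 were in the table, 5 passed the floor and none differed 2-fold. The receptor kinase gene AXL ranged from 15393 in OP449 to 18128 scaled counts in siSET. ERBB3 stood at 0.50 [0.12 to 0.90] in siCIP2A against siNT and at 0.40 [-0.03 to 0.84] in siSET against siNT, from 87 to 145 reads. IGF1R stood at 0.24 [0.05 to 0.43] in OP449 against PBS.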
